A study of Mus musculus with 24 samples.

Results

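Gal3st3 and Rtn4r are 2 of the 14912 genes measured in the left ventricle of mice infused with angiotensin II (ANG II), a vasoconstrictor peptide that raises blood pressure and makes the ventricle grow. They were selected because their mean log2(FPKM + 1) was among those that decreased most from control to ANG II, where FPKM counts sequenced fragments relative to transcript length and library size and so is a level per length. That difference chose them, so it is given below as a description with no test. The ANG II group held 12 male wild-type C57BL/6J mice given 1500 ng/kg/min for 7 days from a subcutaneous osmotic mini-pump, and the control group held 12 given saline in the same way for 7 days. The ventricles were rinsed with saline, RNA was taken from the whole tissue and polyadenylated transcripts were sequenced. All mice were of 1 strain and genotype, their age is not given in the sources used here, and further mice of the study were not analysed here.

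Rtn4r encodes the Nogo receptor, a leucine-rich repeat protein held on the outer face of the membrane by a lipid anchor. It binds inhibitory proteins of myelin, among them Nogo (Rtn4), Mag and Omg, and signals through partner receptors (Ngfr or Tnfrsf19 with Lingo1) to the small GTPase RhoA and its kinases, and it is known best for limiting the regrowth of axons. Gal3st3 encodes a Golgi sulfotransferase that transfers sulfate from the donor PAPS to the 3-hydroxyl of galactose on the N-acetyllactosamine (LacNAc) chains of glycoproteins. The same position of galactose is also used by the sialyltransferases of the St3gal family.

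By GENCODE vM21 (build GRCm38), Rtn4r (ENSMUSG00000043811.5) lay on the plus strand at chr16:18127642-18152408, with 2 exons in 1 transcript of 1938 bases, of which 1419 were coding. Exon 1 held the first 22 coding bases and exon 2 the other 1397. No annotated gene overlapped it. Gal3st3 (ENSMUSG00000047658.6) lay on the plus strand at chr19:5298331-5308738, with 3 exons in 1 transcript of 2421 bases, of which 1293 were coding. Exon 1 was untranslated, and exon 3 held 1168 of the coding bases. An antisense gene, AC125059.4, shared 693 exon bases with Gal3st3 and was not a row of the table. Whether the counting used strand is not stated in the sources used here, so reads of these 693 bases cannot be told apart between the pair.

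The 250 bases before the annotated start of Rtn4r are shown because Rtn4r is 1 of the 2 genes the values below turn on and its upstream sequence could be read. The bases are from RefSeq on GRCm38.p6 (chr16:18127392-18127641, plus strand), with each GC box (GGGCGG, or CCGCCC on the other strand) in capitals.
Rtn4r upstream: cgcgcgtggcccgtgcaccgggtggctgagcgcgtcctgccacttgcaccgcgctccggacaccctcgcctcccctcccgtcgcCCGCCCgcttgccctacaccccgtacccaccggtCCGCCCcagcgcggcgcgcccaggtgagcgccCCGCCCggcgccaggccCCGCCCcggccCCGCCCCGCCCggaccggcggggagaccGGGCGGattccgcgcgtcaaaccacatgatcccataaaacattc
The stretch was 77.2% G and C, above 97.4% of the 32851 promoters of the same length in the table. It held 7 GC-box matches on both strands together, a neighbouring pair of which shared 1 base, and 32.7% of promoters held at least 1. The letters of an E-box, CACGTG, were found on neither strand and occur in 6.02% of promoters of this length. The same held for the letters of an AP-1 site, TGACTCA, which occur in 4.46% of these promoters, and for those of the vertebrate core promoter element TATAAA, which occur in 12.4%. Gal3st3 had no promoter in the table.

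Facts of the whole table touch the values of both genes. The deposited values held 2741 numbers below 0 (0.766% of all), and exact ties between samples separated 4 sets, samples 1 to 3, 4 to 6, 7 to 9 and 10 to 12 of each group. For Gal3st3 and Rtn4r the values could be solved as shifted and scaled within each set. In that solution a group difference, the same for all sets, was set aside first and then added back. Other genes were not solved. The study's methods name no such step. A set has no label, so what its samples share is not known. Control samples 4 to 6 stood apart, with 245 to 426 values below 0 against 24 to 154 in the other controls, and with a summed level of 7 fibroblast markers of 129 to 228 FPKM against 796 to 964. In ANG II samples 4 to 6 the same sum was 1580, 1900 and 2530 FPKM, against 670 to 1840 FPKM in the other ANG II samples. The tissue carried its markers, since the summed level of 8 cardiomyocyte genes was 34700 to 59200 FPKM, and an atrial sum reached 3150 FPKM in control sample 2. Totals of all values were 460715 to 515185 FPKM in ANG II and 482319 to 567727 FPKM in control samples. The number of reads behind each value is unknown.

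Gal3st3 was lower in ANG II than in control ventricles, with no overlap between the groups. The 12 control values ran from 8.38 to 17.5 FPKM around a median of 12.1, and the 12 ANG II values from 0.0252 to 7.36 FPKM around a median of 4.64. The highest ANG II value, in sample 4, lay 1.02 FPKM under the lowest control value, in sample 5. The means were 12.2 ± 2.87 FPKM (SD, n = 12) in control and 4.42 ± 1.80 FPKM (SD, n = 12) in ANG II, so the ANG II mean was 0.363 of the control mean. The difference in mean log2(FPKM + 1) was -1.38 (SE 0.22), the second among the decreases of genes called lower. A gene with all ANG II samples below all controls made up 0.485% of the 14026 genes tested, but the same contrast chose Gal3st3. In tissue RNA, fewer cells of a type and less RNA per cell cannot be told apart.

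Rtn4r was lower in ANG II on average, and its groups overlapped. The control values ran from 1.96 to 13.3 FPKM around a median of 7.32, and the ANG II values from -2.78 to 8.41 FPKM around a median of 3.28. The value of -2.78 FPKM belonged to ANG II sample 12, which no FPKM can have, and it was set to 0 before the logarithm. The mean FPKM below includes it as deposited. Control sample 9 was lower than 9 of the ANG II samples, and ANG II sample 5 was higher than 7 of the controls. The means were 7.97 ± 3.64 FPKM (SD, n = 12) in control and 2.82 ± 2.61 FPKM (SD, n = 12) in ANG II, and the ANG II mean was 0.354 of the control mean. The difference in mean log2(FPKM + 1) was -1.23 (SE 0.30), the fourth among the decreases of genes called lower. It was -0.60 without samples 10 to 12, against -1.14 for Gal3st3.

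**Figure D1:**
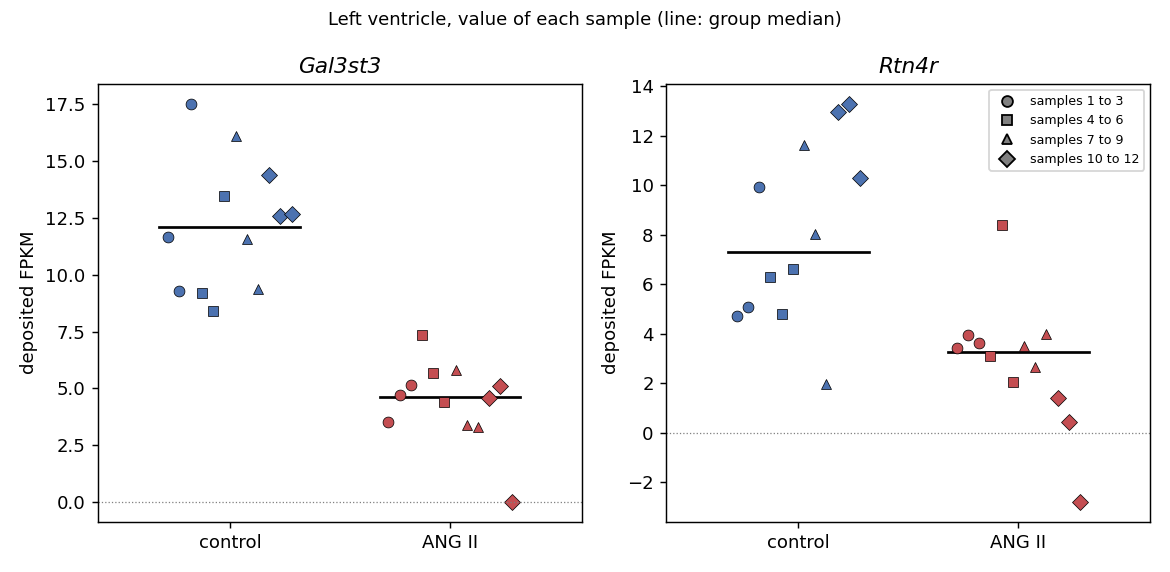
Deposited FPKM (vertical axis) of Gal3st3 and Rtn4r in each of 12 control and 12 ANG II samples, with marker shapes for the 4 sets and a line at the group median. The Gal3st3 groups are apart, 8.38 FPKM and above in control against 7.36 FPKM and below in ANG II, while for Rtn4r ANG II sample 5 at 8.41 FPKM and control sample 9 at 1.96 FPKM lie within the other group's range.

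Both members were genes of middle level. Among all 14912 genes the mean of Gal3st3 exceeded that of 67.0% in control and 42.8% in ANG II samples, and the mean of Rtn4r exceeded 57.0% and 34.9%. Gal3st3 had the higher FPKM of the pair in 11 of 12 control and 10 of 12 ANG II samples. On the log2(FPKM + 1) scale the SD between ANG II samples was 0.77 for Gal3st3 and 0.86 for Rtn4r, and between controls 0.31 and 0.67. The genes around them in the order of decreases were Dbp, a circadian transcription factor (log2 difference -1.61), Retnla, a marker of alternatively activated macrophages (-1.28), Cox7a1, the muscle isoform of a cytochrome c oxidase subunit (-1.21), and Ky, a muscle protein gene (-1.19). Genes called lower at an adjusted p under 0.05 (limma, Benjamini-Hochberg) with a log2 difference beyond -0.5 were 1.40% of those tested. Just outside the 6 largest decreases came Cdkn1c (-1.16) and Lrrc15 (-1.14).

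Set by set, Gal3st3 kept its order. In samples 1 to 3 the controls had 11.6, 9.29 and 17.5 FPKM and the ANG II samples 3.51, 4.70 and 5.16 FPKM. In samples 4 to 6 the controls had 9.21, 8.38 and 13.4 FPKM and the ANG II samples 7.36, 5.69 and 4.41 FPKM, the closest approach of the groups. In samples 7 to 9 the controls had 16.1, 11.6 and 9.38 FPKM and the ANG II samples 5.82, 3.40 and 3.31 FPKM. All controls of each of these sets lay above all of its ANG II samples. In samples 10 to 12 the controls had 14.4, 12.6 and 12.7 FPKM and the ANG II samples 4.58, 5.11 and 0.0252 FPKM, with ANG II sample 12 far below the rest. The log2 differences of the 4 sets were -1.31, -0.73, -1.37 and -2.12. This order within the sets follows from the full separation of the groups, in the contrast that chose Gal3st3. Genes with such an order in every set were 1.25% of those tested, and nothing is read from that share.

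For Rtn4r the sets were less alike. In samples 1 to 3 the controls had 4.70, 5.08 and 9.92 FPKM and the ANG II samples 3.43, 3.94 and 3.64 FPKM, without overlap. In samples 4 to 6 the controls had 6.30, 4.82 and 6.63 FPKM and the ANG II samples 3.12, 8.41 and 2.06 FPKM, and ANG II sample 5 exceeded all 3 controls. In samples 7 to 9 the controls had 11.6, 8.02 and 1.96 FPKM and the ANG II samples 3.52, 2.66 and 3.99 FPKM, and control sample 9 lay below all 3 ANG II samples. The groups overlapped in these 2 sets. In samples 10 to 12 the controls had 12.9, 13.3 and 10.3 FPKM, and the ANG II samples 1.41, 0.453 and -2.78 FPKM. As deposited, these 3 ANG II values were the lowest of all 24 samples.

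From the deposited values, the log2 differences of Rtn4r in the 4 sets were -0.63, -0.48, -0.68 and -3.11. The selection used the mean over all samples. The wide difference of samples 10 to 12 went into that mean, so the test that follows is not independent of the selection. In a limma fit with a group-by-set interaction the difference of Rtn4r varied between sets (F = 8.56 on 3 degrees of freedom, adjusted p = 0.0202 over all genes, called in 7.49% of those tested). This call ended without samples 10 to 12 (adjusted p = 0.967) or without samples 4 to 6 (adjusted p = 0.272), and under quantile normalization (adjusted p = 0.0548). Without ANG II sample 12 alone, a choice made after its value was seen, the adjusted p was 0.05 when rounded. The difference of Gal3st3 was not shown to vary between sets (F = 1.68, adjusted p = 0.420). ANG II sample 12 also had the lowest total of all values (460715 FPKM) and the lowest summed level of 8 macrophage genes in its group (291 FPKM), and the part of these in its values was not tested.

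The differences inside a set can also be read before the adjustment, since the deposited values of each member in 1 group of a set are spaced in whole multiples of a common step. With original values taken as whole hundredths of an FPKM, this step is 0.01 FPKM divided by a scale factor. In the recovered solution the difference set aside and added back, ANG II minus control, was -6.29 FPKM for Gal3st3 and -4.85 FPKM for Rtn4r. The deposited difference of a set lies nearer to this value than the original where the factor is above 1, and farther from it where the factor is below 1. A single solution was found for both genes, and its largest errors were 8.1e-07 and 2.6e-07 of a step. The 3 ANG II and the 3 control samples of the same numbers shared their step in 4 of 4 sets. The recovered scale factors were 1.42, 0.881, 0.731 and 1.00 for Gal3st3, and 1.03, 0.879, 0.684 and 1.58 for Rtn4r, where a factor above 1 means that the deposited spread is smaller than the original. The offset of a set cannot be recovered, so only differences within it are known.

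Before the adjustment the mean of ANG II minus control for Gal3st3 was -9.21, -4.74, -7.66 and -9.97 FPKM in the 4 sets, against -8.35, -4.53, -8.16 and -9.96 FPKM as deposited. The lowest control lay above the highest ANG II sample in each set, by 3.23, 1.65, 4.29 and 7.47 FPKM. Only the order within each set is known before the adjustment, not the order over all 24 samples.

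For Rtn4r the differences before the adjustment were -2.84, -1.80, -4.14 and -16.9 FPKM, against -2.90, -1.39, -3.81 and -12.5 FPKM as deposited. In samples 7 to 9 control sample 9 had stood 0.14 FPKM above the highest ANG II sample and is below all 3 of them as deposited. In samples 4 to 6 the groups overlapped before and after. In samples 10 to 12 the controls stood 17.9 to 22.6 FPKM above ANG II sample 12. An FPKM cannot be below 0, so these were their lowest possible original values, and the deposited 10.3 to 13.3 FPKM understate them. ANG II samples 10 and 11 stood 6.62 and 5.11 FPKM above sample 12, so by the same bound their originals were at least that. Their deposited 1.41 and 0.453 FPKM understate them too.

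**Figure D2:**
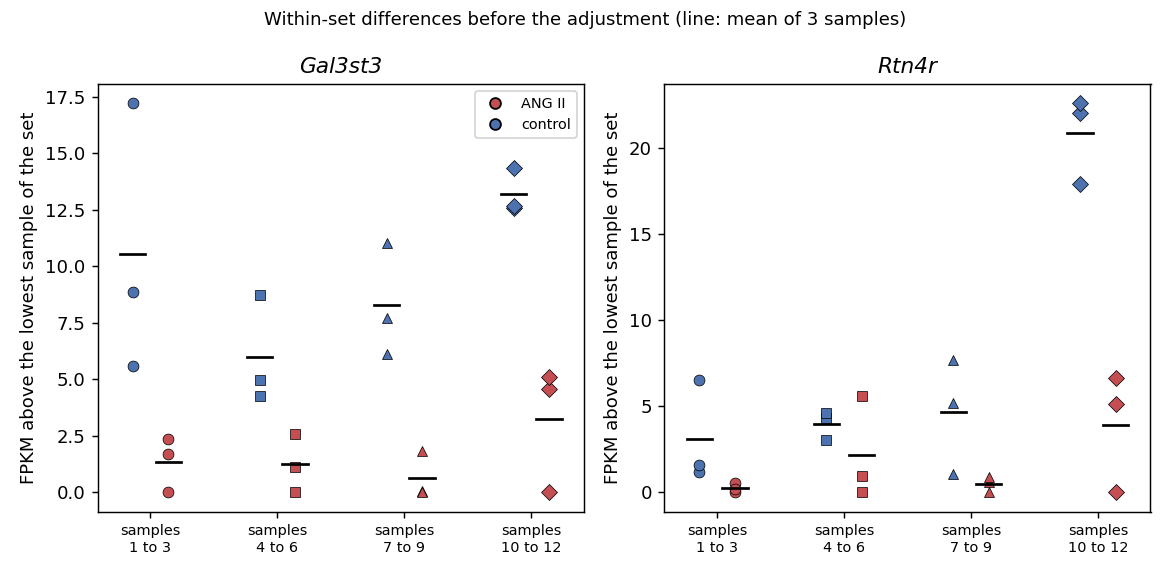
FPKM above the lowest sample of the same set (vertical axis), recovered as it was before the adjustment, for the 3 control and 3 ANG II samples of each set (horizontal axis), with a line at each mean. The means of Gal3st3 differ by -4.74 to -9.97 FPKM (ANG II minus control), and those of Rtn4r by -1.80 to -4.14 FPKM in the first 3 sets and by -16.9 FPKM in samples 10 to 12.

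Whether Gal3st3 and Rtn4r varied together was asked within each group. The same values, the low ones of ANG II sample 12 among them, went into the means that selected both genes. The relations are therefore not free of the selection. In the controls r was 0.713 (n = 12, permutation test p = 0.00846, adjusted p = 0.186 over 22 relations) and rho 0.664 (permutation p = 0.0213, adjusted p = 0.237). Leaving out control samples 3 and 5, farthest from the median of Gal3st3, gave r = 0.735, and removing the mean of each set gave r = 0.756 (permutation p = 0.00257, adjusted p = 0.0565). The relation in the controls did not pass the correction. In ANG II samples r was 0.635 (n = 12, permutation p = 0.0426, adjusted p = 0.313) and rho 0.308 (permutation p = 0.327, adjusted p = 0.730). Without ANG II samples 4 and 12 it fell to r = 0.072, so it rested on those samples, and with set means removed it was 0.491 (permutation p = 0.112, adjusted p = 0.412).

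**Figure D3:**
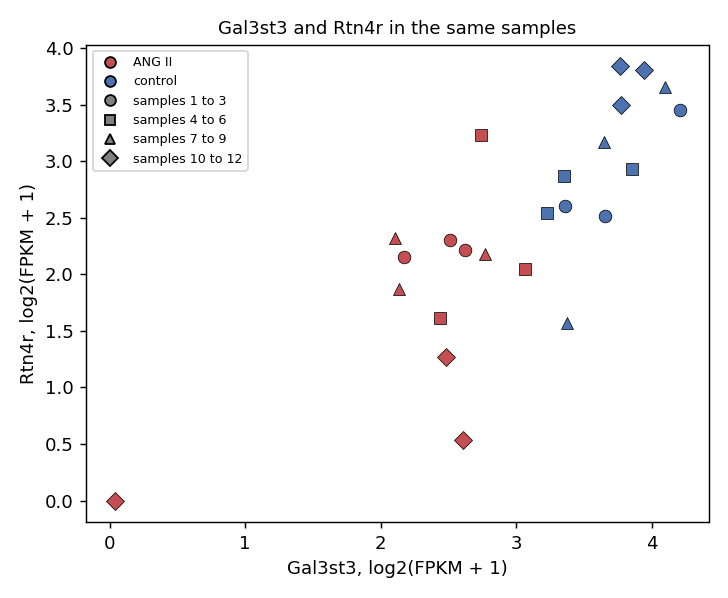
Gal3st3 (horizontal axis) against Rtn4r (vertical axis) in each sample, both as log2(FPKM + 1) with values below 0 set to 0, coloured by group and shaped by set. ANG II sample 12 lies at the lower left corner, and the correlation is 0.713 in the controls and 0.635 in ANG II samples.

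The members' levels were also compared, within each group, with the mean log2 level of markers of cardiomyocytes, fibroblasts, endothelial cells, macrophages and of 5 hypertrophy genes. Of these 20 relations, 0 passed after Benjamini-Hochberg adjustment (permutation tests, n = 12), and 1 had an unadjusted p under 0.05. It joined Gal3st3 with the endothelial genes in controls (r = 0.666, rho = 0.664, permutation p = 0.0185, adjusted p = 0.203), with r = 0.680 once set means were removed and 0.471 without control samples 3 and 5.

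Marker levels differed between the groups. All 8 macrophage genes and all 5 red blood cell genes were called higher in ANG II, 4 of 7 fibroblast genes were called higher, and 5 of 8 cardiomyocyte genes were called lower, against 20.9% of all genes tested called higher and 12.6% lower. The summed macrophage level was 291 to 904 FPKM in ANG II and 226 to 518 FPKM in control samples, and the red blood cell sum 779 to 6440 FPKM against 92.2 to 2950 FPKM. The summed cardiomyocyte level was 34700 to 50800 FPKM in ANG II and 45800 to 59200 FPKM in control samples. Schwann cell genes, of a kind of cell that lines peripheral axons, summed to 4.57 to 10.1 FPKM and 3.94 to 8.50 FPKM, and 0 of 5 were called by limma, with 0 at an unadjusted p under 0.05 and 0 by the Wilcoxon test. Neuronal genes summed to 3.96 to 10.5 FPKM and 4.38 to 7.96 FPKM, with 1 of 4 called. That was Gap43, a growth cone protein gene, which was higher in ANG II at 0.376 ± 0.155 against 0.161 ± 0.0887 FPKM (SD, n = 12). Dbh, of the same list, was lower without a call, at 1.22 ± 0.381 against 1.70 ± 0.582 FPKM (limma adjusted p = 0.0584). At an unadjusted limma p under 0.05, 2 of these 4 genes were higher and 1 lower. In the endothelial list 1 of 6 genes was called higher and 1 lower, and in the smooth muscle and pericyte list 2 of 7 and 1. The part of these cells in the levels of Gal3st3 and Rtn4r was not tested.

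Of the 5 hypertrophy genes 4 were called higher in ANG II by limma, against 20.9% of all genes tested. Acta1, the skeletal actin of the fetal programme, had 1580 ± 760 FPKM (SD, n = 12) in ANG II and 469 ± 342 FPKM in control samples (log2 difference 1.96, SE 0.37). Ankrd1, a stretch-responsive ankyrin repeat gene, had 1100 ± 268 against 433 ± 172 FPKM (1.44, SE 0.22). Nppa, Myh7, Acta1 and Ankrd1 were called higher and Nppb was not (limma, adjusted p = 0.110). The mean of Nppb was also higher in ANG II, at 478.5 ± 181.8 against 286.6 ± 179.6 FPKM (SD, n = 12). By the Wilcoxon test all 5 were called higher. Control sample 2 stood out here, with a summed level of 7610 FPKM over the 5 genes against 544 to 2100 FPKM in the other controls, and its Gal3st3 and Rtn4r values of 9.29 and 5.08 FPKM lay inside the range of the other controls.

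Of the Nogo receptor pathway, a list of 22 further genes, 20 were in the table and 19 passed the filter on low values. Of these, 10 were called higher in ANG II and 2 lower, against 20.9% and 12.6% of all genes tested. The list median of the log2 difference was 0.15 and that of all genes 0.06. Without samples 4 to 6 of both groups, 1 gene of the list was called higher, and without samples 7 to 9 it was 3.

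Among the ligands, Rtn4, which encodes Nogo itself, had 42.3 ± 10.5 FPKM (SD, n = 12) in ANG II and 31.2 ± 3.08 FPKM in control samples, and rose by a log2 difference of 0.40 (SE 0.10, limma adjusted p = 0.0036). It was no longer called without samples 4 to 6 (its largest adjusted p was 0.0722). Its log2 differences in the 4 sets were 0.27, 0.68, 0.42 and 0.21, beside -0.63, -0.48, -0.68 and -3.11 for the receptor gene Rtn4r. Mag stood at 0.154 and 0.0920 FPKM and was not called (adjusted p = 0.135), and Olfm1, a secreted ligand, had a log2 difference of 0.52 (SE 0.25, adjusted p = 0.105).

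The closest relatives of the receptor did not show the decrease of Rtn4r as a call. Rtn4rl1 had 2.99 ± 0.80 FPKM in ANG II and 3.25 ± 0.80 FPKM in control samples (SD, n = 12, log2 difference -0.10, SE 0.11, limma adjusted p = 0.518). Rtn4rl2 had 6.57 ± 2.60 and 5.62 ± 1.57 FPKM (0.15, SE 0.16, adjusted p = 0.474). In controls Rtn4r had the highest mean FPKM of the 3 receptors, and in ANG II the lowest, where its difference from Rtn4rl1 was smaller than the SD of either. That ANG II mean includes the value below 0 of sample 12. By the ANG II median Rtn4r was not the lowest, at 3.28 FPKM against 2.86 FPKM for Rtn4rl1. Pirb, an immune receptor that also binds Nogo, had 7.76 ± 3.50 against 4.26 ± 1.98 FPKM and rose by 0.74 (SE 0.21, adjusted p = 0.010), and S1pr2, a lipid receptor bound by another stretch of Nogo, rose by 0.42 (SE 0.15, adjusted p = 0.0305). Both calls ended without samples 4 to 6 and without samples 7 to 9. Pirb was called in 34 and S1pr2 in 28 of 37 alternatives.

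Of the co-receptors, Tnfrsf19 (Troy) fell, from 1.02 ± 0.292 FPKM in control to 0.529 ± 0.217 FPKM in ANG II samples (SD, n = 12, log2 difference -0.40, SE 0.08, limma adjusted p = 0.00078), and it was called in each of the 36 alternatives in which it was tested. Ngfr at 0.491 and 0.359 FPKM and Lingo1 at 0.592 and 0.477 FPKM were not called. Rtn2, a reticulon of muscle, fell from 104 ± 9.04 to 67.6 ± 12.2 FPKM (-0.63, SE 0.08, adjusted p = 5.16e-06), and it was called in all 37 alternatives. Rtn3 rose by 0.13 (SE 0.04, adjusted p = 0.0176) and Rtn1 was not called.

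All 6 effector genes of the list were called higher in ANG II, against 20.9% of all genes tested. Cfl1, the actin-severing protein cofilin, had 214 ± 50.9 against 150 ± 29.4 FPKM (log2 difference 0.50, SE 0.12, limma adjusted p = 0.00348), and Limk1, the kinase that inhibits cofilin, rose by 0.32 (SE 0.08, adjusted p = 0.00494). Arhgdia, which holds small GTPases in the cytosol, rose by 0.32 (SE 0.07, adjusted p = 0.000833). Rhoa rose by 0.14, Rock1 by 0.19 and Rock2 by 0.22. Arhgdia was called under all 37 alternatives, and the other 5 were not called without samples 4 to 6. Of the 37 alternatives, Limk1 was called in 36, Cfl1 in 35, Rhoa and Rock1 in 31 each and Rock2 in 21.

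In the list of galactose sulfation, 17 of 20 further genes were in the table and 16 were tested. Of these 2 (12.5%) were called higher and 0 lower by limma, against 20.9% and 12.6% of all genes tested. At an unadjusted p under 0.05 limma gave 5 higher and 0 lower, the Wilcoxon test gave 1 and 0, and the list median was 0.09. The other galactose 3-O-sulfotransferases were low. Gal3st4 had 0.669 ± 0.163 FPKM in ANG II and 0.482 ± 0.292 FPKM in control samples (SD, n = 12, log2 difference 0.19, adjusted p = 0.0945). Gal3st2 had 0.294 and 0.210 FPKM and Gal3st1 0.0987 and 0.0892 FPKM. Among those in the table Gal3st3 was the galactose 3-O-sulfotransferase with the highest level per length in both groups, also after its decrease.

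The supply of PAPS showed few calls beside the decrease of Gal3st3. Papss1 and Papss2, the enzymes that make PAPS, had 6.76 and 7.07 FPKM in ANG II and 6.30 and 5.95 FPKM in control samples, and neither was called (adjusted p = 0.540 and 0.0818). Slc35b2, which carries PAPS into the Golgi, had 16.1 ± 2.24 and 15.9 ± 1.80 FPKM (adjusted p = 0.951). Impad1, a phosphatase that clears the spent donor, rose by 0.20 (SE 0.08, adjusted p = 0.0403), a call kept in 16 of 37 alternatives. Chst1, which sulfates position 6 of galactose in the same kind of chain, rose from 2.17 ± 0.678 to 3.49 ± 0.979 FPKM (0.50, SE 0.12, adjusted p = 0.00315), and was not called without samples 4 to 6.

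The LacNAc and 3-sialylation list held 12 genes, galactosyltransferases of the B4galt family and sialyltransferases of the St3gal family. It was drawn up by family, so not every gene in it need act on LacNAc. Of these 12 genes, 2 (16.7%) were called higher and 1 (8.33%) lower, shares near the 20.9% and 12.6% of all genes tested. B4galt1, the main LacNAc galactosyltransferase, rose from 41.5 ± 4.51 to 49.7 ± 6.74 FPKM (SD, n = 12, log2 difference 0.25, limma adjusted p = 0.00541), but not without samples 7 to 9 or samples 10 to 12. St3gal1 rose by 0.28 (SE 0.08, adjusted p = 0.0108) and St3gal3 fell from 43.8 ± 3.89 to 38.2 ± 4.20 FPKM (-0.20, SE 0.06, adjusted p = 0.0113). Neither was called without samples 4 to 6. No gene of these lists other than the members had a log2 difference below -1.

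**Figure D4:**
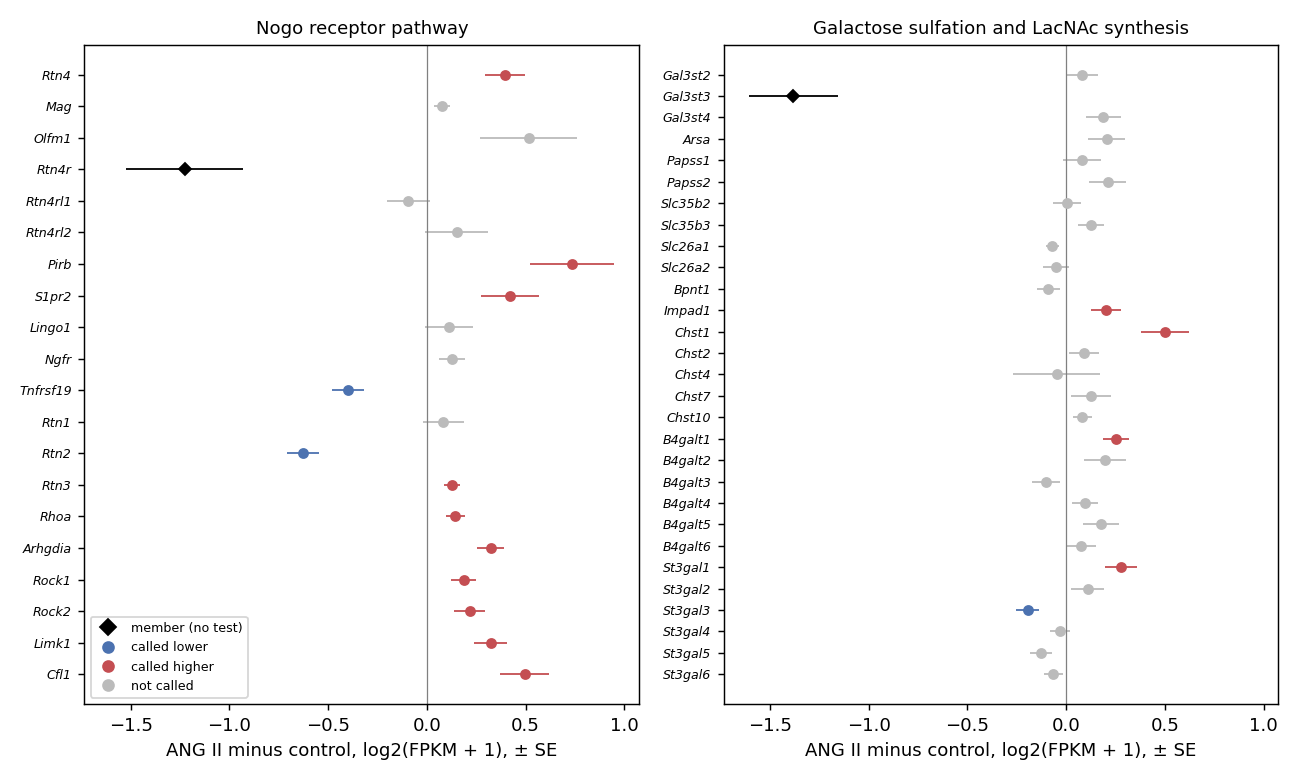
Difference of mean log2(FPKM + 1), ANG II minus control, with SE (horizontal axis) for the tested genes of the Nogo receptor pathway and of galactose sulfation and LacNAc synthesis (vertical axis). Black diamonds are Gal3st3 at -1.38 and Rtn4r at -1.23, which were selected on this difference and carry no test, and the lowest other gene is Rtn2 at -0.63.

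The nearest measured genes on either side of the members on the chromosome did not share the size of their differences. Beside Rtn4r, Prodh, 37.4 kb below it, fell from 14.7 ± 1.81 to 11.6 ± 2.81 FPKM (SD, n = 12, log2 difference -0.34, limma adjusted p = 0.0101), and Slc25a1, Dgcr6, Zdhhc8, Ranbp1 and Trmt2a were not called, with differences from -0.08 to 0.21. Beside Gal3st3, Klc2, 180 kb below it, fell from 37.9 ± 2.11 to 32.4 ± 2.66 FPKM (-0.22, adjusted p = 0.000383). Sf3b2, on the minus strand 2.88 kb below Gal3st3, had 71.9 and 72.7 FPKM (adjusted p = 0.751), and Pacs1, Cst6, Banf1 and Eif1ad were not called either.

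Across the 24 samples, after the mean of each group in each set was removed, the genes most like Gal3st3 among 11457 genes with a mean of at least 1 FPKM were Slc35f6 (r = 0.916), Pgls (0.914), Irx4 (0.905), Gpr137 (0.895) and Pdgfb (0.885). Of these Irx4, a ventricular homeobox factor, was lower in ANG II (log2 difference -0.39, limma adjusted p = 0.00517), as was Slc35f6 (-0.22, adjusted p = 0.00982), and the other 3 were not called. The genes most like Rtn4r were Commd1 (0.841), Coq4 (0.827), Gna12 (0.803), Actn2 (0.802) and Lcmt2 (0.797). Commd1, Coq4 and Gna12 were called lower in ANG II, by 0.20 to 0.33 on the log2 scale. Rtn4r and Gal3st3 had r = 0.520 with each other on this measure, which put Rtn4r at position 1879 among the genes most like Gal3st3. These values share libraries and sets of samples, and are given as descriptions.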

How the data were processed

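The authors deposited 1 table of FPKM values for 14912 genes in 24 samples, and the values are of another kind than plain FPKM because 2741 are below 0. Per the labels, HISAT, Bowtie2 and RSEM were named for the processing, with versions and build not given in the sources used here. Exact ties of at least 100 genes joined samples into 4 sets of 3 per group. The shift and scaling by set was solved for the 2 members only. All values computed here start from that table. For tests, values below 0 were set to 0, genes with a mean of at least 0.1 FPKM were kept (14026), and log2(FPKM + 1) was fitted by limma 3.58.1 in R 4.3.3 with an intensity trend, two-sided, and Benjamini-Hochberg adjustment over all genes. A gene was called at an adjusted p under 0.05. The fit took the deposited values of the 24 samples as independent. The effect of an adjustment by set on SEs, p-values and counts of calls was not tested. Adding 1 understates the log2 change of low genes. Correlations used two-sided permutation tests with 100000 resamples in Python 3.11.15 (numpy 2.4.6, pandas 2.3.3, scipy 1.17.1), and figures were drawn with matplotlib 3.10.9. Differences within sets before the adjustment were recovered from the step between values. The scripts were tested on simulated data.

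The members and gene lists were chosen with earlier results of these data known. Named genes were the members, list genes that were called or highest in their role, the 6 largest decreases and the hypertrophy genes. Also named were the 5 genes most correlated with each member and the 3 nearest genes on each side among those measured. Cdkn1c and Lrrc15 were named as the genes just outside the 6. Depth is unknown because no counts were used, and the 12 samples per group limit the precision. Same-numbered ANG II and control samples did not deviate together (correlations from -0.557 to -0.00109). In the members both groups of a set had been adjusted together, so these correlations cannot decide whether the numbers pair the samples. Alternatives were another pseudocount, filter, normalization or test, a replicate block, the set as a term, and leaving out each sample or set.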

Additional observations from a re-analysis of the deposited data

Results flagged for a closer look

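The difference of Rtn4r between ANG II and control samples varied between the 4 sets of samples, by a limma test of the group-by-set interaction (adjusted p = 0.0202 over 14026 genes). The log2 differences were -0.63, -0.48, -0.68 and -3.11, so samples 10 to 12 carried the widest one, and ANG II samples were lower on average in 4 of 4 sets. In samples 10 to 12 the deposited values of both groups understate the originals. The difference of samples 10 to 12 also went into the mean that selected Rtn4r, so the test is not independent of the selection. What the samples of a set share is not given in the sources used here, and its part in the result was not tested.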

How the results depend on the processing

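Gal3st3 and Rtn4r kept their direction under all 36 alternatives that give a log2 difference (the Wilcoxon test gives none). This direction selected both genes, so it is given as a description. The filters, the fit without an intensity trend, the replicate block and the set as a term leave the difference of means unchanged. Values ran from -1.76 to -1.14 for Gal3st3 and from -1.73 to -0.60 for Rtn4r, the smallest both without samples 10 to 12. Leaving out 1 sample at a time gave -1.45 to -1.18 for Gal3st3 and -1.36 to -1.06 for Rtn4r. The variation of Rtn4r between sets had an adjusted p of 0.0548 under quantile normalization, 0.272 without samples 4 to 6 and 0.967 without samples 10 to 12. Across its alternatives the adjusted p ran from 0.00625 to 0.967, and without ANG II sample 12 it was 0.05 when rounded. That of Gal3st3 passed in none of them. Depth is unknown, so how far it limits these values cannot be given.

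Over all genes 1769 were called lower and 2928 higher. Quantile normalization gave 2930 lower and 1922 higher, so the lower share of calls went from 37.7% to 60.4%. Samples 4 to 6 left out gave 1173 higher. With 1 sample left out, 1596 to 1824 were lower and 2375 to 3335 higher. Whether the numbers pair the samples is not known. The replicate block gave 1586 higher, 4 Nogo receptor pathway genes higher, 1 galactose sulfation gene higher and 0 LacNAc and 3-sialylation genes lower. No sample's highest correlation was with its own number.

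In the Nogo receptor pathway, 2 genes were lower and 10 higher. With a mean of at least 1 FPKM required, which leaves fewer genes, 1 was lower. Higher genes were 1 without samples 4 to 6 and 3 without samples 7 to 9. With 1 sample left out the list gave 2 lower in each case and 8 to 11 higher.

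In the galactose sulfation list, 0 genes were lower and 2 higher. The Wilcoxon test, median-ratio scaling, quantile normalization, the set as a term, and samples 1 to 3 or 10 to 12 left out each gave 1 higher, and samples 4 to 6 left out gave 0. Quantile normalization gave 2 lower. With 1 sample left out 1 to 3 were higher and 0 lower.

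In the LacNAc and 3-sialylation list, 1 gene was lower and 2 higher. Quantile normalization gave 4 lower, and samples 4 to 6 or samples 10 to 12 left out each gave 0 lower and 1 higher, and samples 7 to 9 left out gave 1 higher. With 1 sample left out 1 to 2 were lower and 2 to 3 higher. Where a value moved, the cause was not tested. Correlations of Gal3st3 with Rtn4r ran from 0.308 to 0.811 in ANG II and from 0.664 to 0.756 in control samples, with adjusted p from 0.0565 to 0.777 (permutation tests). The lowest value of each range is rho and the others are r. Without ANG II samples 4 and 12 the r in ANG II was 0.072, outside this range. Of the marker relations, 0 passed in any of 5 alternatives.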
